A study of Mus musculus with 6 samples.

Results

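Potassium channel genes, the family whose symbols begin with Kcn, were described in bulk RNA-Seq of mouse hindlimb muscle. Members were all symbols in the count tables that begin with Kcn, apart from the Kcnip calcium-sensor genes. These were 94 of 24421 genes. Single genes were described only where 10 or more counts were present in at least 3 of the 6 libraries, which 52 members met. The libraries came from gastrocnemius-plantaris (GP) muscle of 6 male mice of 5 months of age, 3 months after tamoxifen. The labels give the strain background as B6C3F1, and per the study's methods founders from B6C3F1 zygotes were bred to C57BL/6N mice and then to the Cre line. Both groups were Net39 fl/fl, with a floxed first exon of Net39, a gene that encodes a protein of the nuclear envelope, and both received tamoxifen. The 3 mice labelled Ctrl carried no Cre. The 3 labelled cKO also carried HSA-CreERT2, a tamoxifen-inducible Cre driven by the human skeletal actin promoter, which is active in skeletal muscle fibres and not in satellite cells, so the other cell types of the muscle were not targeted.

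Potassium channels set the resting potential of the muscle fibre and end its action potential. A pore is formed by alpha subunits, which may be opened by voltage (Kv), by calcium or sodium, or may rectify inward (Kir) or leak (the K2P channels), and accessory subunits change gating or carry the pore to the membrane. In skeletal muscle, inward rectifiers return potassium from the transverse tubules, channels closed by ATP link excitability to metabolism, and human mutations in several members cause periodic paralysis.

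The labels and the targeted gene did not match. Net39, listed as Ppapdc3, had 310, 321 and 217 counts in Ctrl-labelled libraries and 5365, 4340 and 6080 counts in cKO-labelled ones. Net39 RNA was therefore higher in cKO-labelled libraries, with 134 ± 19.7 CPM (counts scaled to library size, SD, n = 3) against 7.2 ± 1.1 (SD, n = 3), which was an 18.6-fold difference (log2 fold change 4.22 ± 0.17, SE, adjusted p = 0.000161, edgeR). Groups are given here as the labels name them, and the cause of the mismatch was not tested. Every direction below is therefore one between labelled groups. Library totals were 33860001 to 38201728 counts in Ctrl-labelled ones and 39191239 to 48839910 in cKO-labelled ones. CPM were scaled by the trimmed mean of M values (TMM), whose factors were 1.08 to 1.11 and 0.865 to 0.983. The defining muscle genes were abundant, and no gene on the list of 8 muscle fibre markers fell below 39750 counts in any library. Scaling by total counts alone moved the median over all genes of the log2 fold change from -0.015 to -0.27.

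Upstream sequences are shown for members described below, in the 5′ to 3′ direction of the gene, as the 250 bases before the RefSeq start on GRCm38.p6. Kcne1l and Kcnab1 had the widest difference in each direction, and Kcnj2 and Kcnc1 were, by CPM, the most abundant members that differed over 2-fold in each direction. Capitals mark matches to 4 motifs searched on both strands: the E-box CAGCTG bound by muscle basic helix-loop-helix factors, the MCAT motif CATTCC, the MEF2 motif and the AP-1 motif TGANTCA. The window of Kcne1l is chrX:142306199-142306448 (minus strand), that of Kcnj2 chr11:111065914-111066163, that of Kcnab1 chr3:65108764-65109013 and that of Kcnc1 chr7:46396218-46396467 (plus strand). For Kcnab1, 1 of 3 RefSeq starts was used, 370 bases from the start of GENCODE's longest coding transcript, and for Kcnc1 that distance was 1180 bases. For Kcne1l it was 96 bases, so its window overlaps the 5′ end of the GENCODE gene.
Kcne1l: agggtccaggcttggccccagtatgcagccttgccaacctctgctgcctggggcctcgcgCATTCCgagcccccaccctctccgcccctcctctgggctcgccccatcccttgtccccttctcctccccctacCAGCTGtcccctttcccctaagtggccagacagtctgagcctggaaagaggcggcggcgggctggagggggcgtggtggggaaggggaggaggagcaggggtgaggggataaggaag
Kcnj2: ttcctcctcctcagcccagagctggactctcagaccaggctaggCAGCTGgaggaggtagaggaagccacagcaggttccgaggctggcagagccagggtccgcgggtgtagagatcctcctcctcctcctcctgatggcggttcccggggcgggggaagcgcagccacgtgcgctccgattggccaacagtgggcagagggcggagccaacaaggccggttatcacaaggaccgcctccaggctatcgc
Kcnab1: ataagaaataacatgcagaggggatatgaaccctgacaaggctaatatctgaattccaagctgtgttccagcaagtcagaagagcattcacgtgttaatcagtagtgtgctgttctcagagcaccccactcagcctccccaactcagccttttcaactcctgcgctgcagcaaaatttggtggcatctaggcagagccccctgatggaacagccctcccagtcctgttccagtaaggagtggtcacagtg
Kcnc1: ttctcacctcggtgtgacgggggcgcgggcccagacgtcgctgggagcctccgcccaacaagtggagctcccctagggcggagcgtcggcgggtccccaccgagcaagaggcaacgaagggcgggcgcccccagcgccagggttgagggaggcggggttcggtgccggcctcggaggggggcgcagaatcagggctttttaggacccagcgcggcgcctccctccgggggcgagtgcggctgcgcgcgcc
The Kcne1l sequence held the E-box at -117 to -112 and the MCAT motif at -190 to -185, and that of Kcnj2 held the E-box at -206 to -201. No match to the 4 motifs lay in the windows of Kcnab1 and Kcnc1. Among the 65 members with a promoter entry, 14 (21.5%) held the E-box, 11 (16.9%) the MCAT motif, 2 (3.08%) the MEF2 motif and 1 (1.54%) the AP-1 motif. Over 32851 promoters these shares were 13%, 12.6%, 3.2% and 6.75%. The matches are a description of these windows.

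A few members made up most of the family's RNA. Levels between genes are compared here as CPM per kilobase of exon, with the exons of protein-coding transcripts merged. Kcna7, which encodes the voltage-gated subunit Kv1.7, ranked first in both groups and alone held 30.1% to 33.3% of the family's summed level in Ctrl-labelled libraries and 32.7% to 40.9% in cKO-labelled ones. Kcnj11, the pore of the ATP-sensitive channel, was second at a mean of 52.9 CPM per kb over the 6 libraries, against 122 for Kcna7. The inward rectifiers Kcnj12 and Kcnj2 and the fast voltage-gated subunit Kcnc4 followed at 42.5, 18.7 and 17.7 CPM per kb. Kcnj11 (41.9 to 66.8) lay above Kcnj12 (24.5 to 72.2) in every library except that of mouse 1 labelled cKO. There Kcnj12 was higher (72.2 against 66.8), so their order was not the same in all mice. These 5, the highest by the mean over all 6 libraries and not the highest 5 of either group alone, together held 68.6% to 71.4% of the summed level in Ctrl-labelled libraries and 75.5% to 75.7% in cKO-labelled ones.

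**Figure D1:**
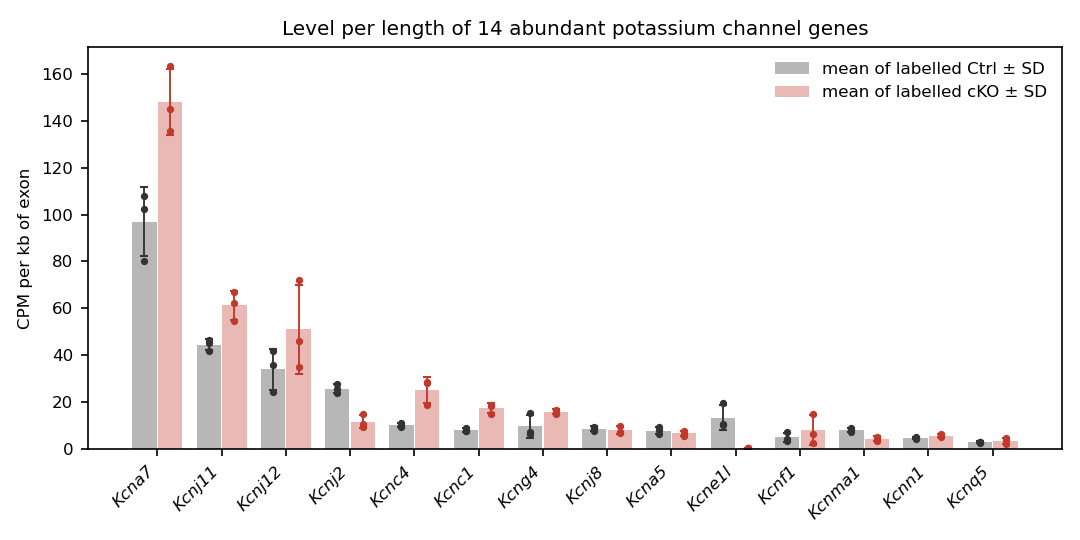
Level in CPM per kb of exon (vertical axis, linear) for 14 of the members with the highest mean over all libraries. Bars are means of the 3 Ctrl-labelled libraries (grey) or the 3 cKO-labelled ones (red), lines are SD and points are libraries. Kcna7 stands above every other member in both groups, and the Kcne1l bar is near 0 in cKO-labelled libraries.

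The rank order below the top members differed between the labelled groups. Kcnj2 ranked 4 among members in Ctrl-labelled libraries and 7 in cKO-labelled ones, and the accessory gene Kcne1l ranked 5 and 23. Kcnc4 moved from rank 6 to 4 and Kcnc1 from 9 to 5. Voltage-gated alpha subunits made up 48.4% to 52.8% of the family's summed level in Ctrl-labelled libraries and 57.2% to 65.0% in cKO-labelled ones, without overlap. Calcium- and sodium-activated channels (4.63% to 5.54% against 2.52% to 3.52%) and accessory subunits (3.77% to 7.14% against 1.2% to 1.54%) held smaller shares in cKO-labelled ones, also without overlap. Shares of the inward rectifiers overlapped, at 35.7% to 39.3% and 30.1% to 37.7%. The summed level itself was 267 to 324 CPM per kb in Ctrl-labelled libraries and 365 to 416 in cKO-labelled ones.

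Single members changed in both directions. The quasi-likelihood test of edgeR was fitted on 14180 genes, and 52 members were among them. At an adjusted p under 0.05, 7 members (13.5% of those tested) were higher in cKO-labelled libraries and 5 (9.62%) were higher in Ctrl-labelled ones, beside 12.6% and 11.8% of all genes tested. The members called were thus about as frequent as genes in general. With a fold over 2 required as well, 5 members (9.62%) were higher in cKO-labelled libraries and 4 (7.69%) in Ctrl-labelled ones, where the background was 2.13% and 3.92%. The libraries of the labelled groups did not overlap for 10 members higher in cKO and 12 higher in Ctrl (19.2% and 23.1% of those tested), near the background of 22% and 21.9%. The median log2 fold change was -0.11 over the members tested and -0.015 over all genes, with 24 members positive and 28 negative. Under scaling by total counts the split was 5 higher in labelled cKO and 12 higher in labelled Ctrl, of which Kcnj6 and Kcnk13 had 10 or more counts in every library of labelled Ctrl only. With 3 mice per group, exact permutation tests of single members cannot give a two-sided p below 0.1. In whole muscle, fewer cells of a type and less RNA per cell cannot be told apart.

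**Figure D2:**
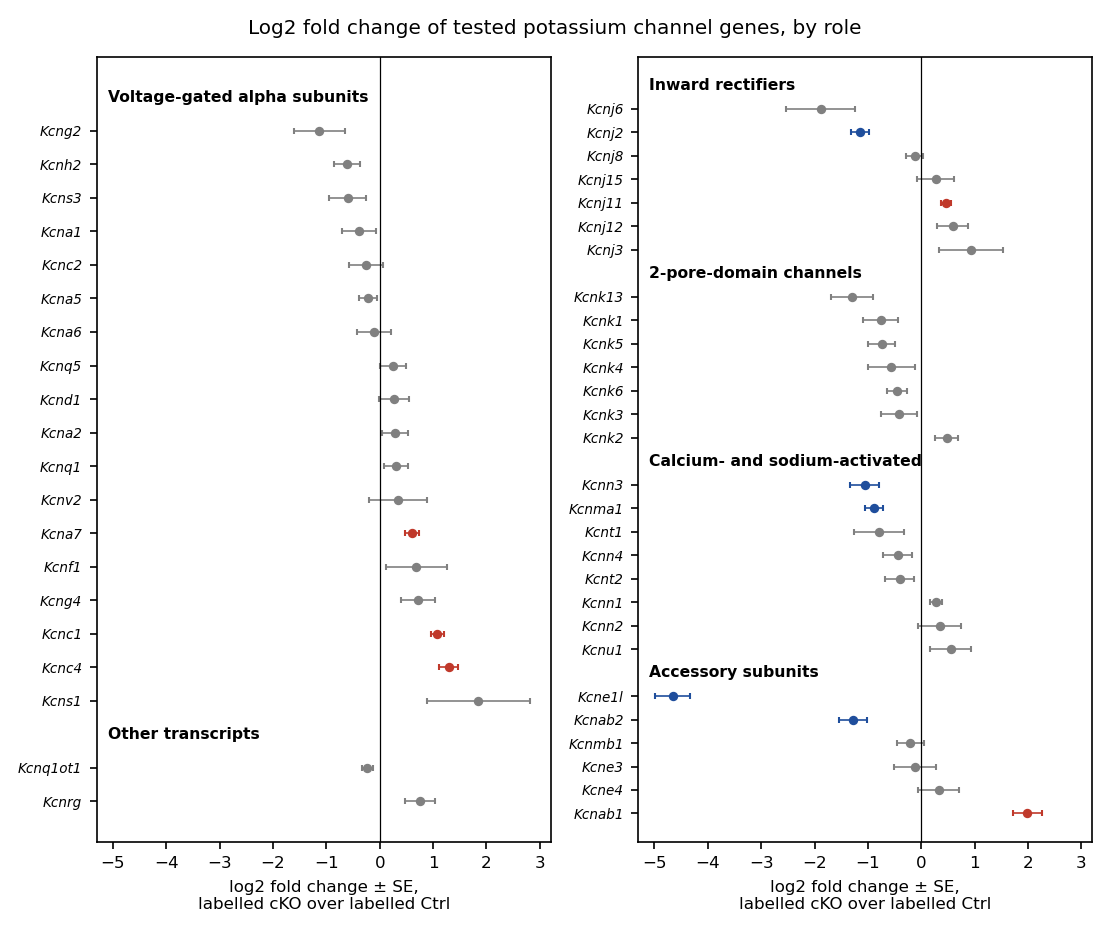
Log2 fold change of labelled cKO over labelled Ctrl (horizontal axis, with SE) for reported members that were tested and met the 10-count rule, grouped by role. Red points are past an adjusted p of 0.05 and higher in cKO-labelled libraries, blue points are past it and higher in Ctrl-labelled ones, and grey points are not past it. Among the 3 red voltage-gated points, Kcna7 lies at 0.61 between grey points of wider error, and Kcne1l, at -4.66, is the farthest point from 0.

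Of 40 voltage-gated alpha subunit genes, 21 were tested, and 5 were higher in cKO-labelled libraries and 0 were higher in Ctrl-labelled ones. These were 23.8% and 0% of the 21, beside 12.6% and 11.8% of all genes tested. At an unadjusted p under 0.05 these counts were 5 and 1, where 19.2% and 19.6% of all genes tested passed in the same directions. The median log2 fold change of the 21 was 0.29, with 13 positive. Kcnc1 and Kcnc4 were among these 5 and belong to the Kv3 class, which opens at strong depolarization and closes fast. Kcnc1 (Kv3.1) was at 73.1, 85.5 and 72.6 CPM in Ctrl-labelled libraries and 173, 139 and 176 CPM in cKO-labelled ones. Every cKO-labelled library lay above every one labelled Ctrl, and the difference was 2.11-fold (log2 fold change 1.08 ± 0.12, SE, adjusted p = 0.00273, edgeR). Kcnc4 (Kv3.4), a muscle A-type current subunit, was at 37.8, 41.1 and 34.4 CPM against 104, 68.1 and 105 CPM. Mouse 2 labelled cKO was the lowest of its group and still above the 3 labelled Ctrl, with a 2.44-fold difference (1.29 ± 0.17, SE, adjusted p = 0.00433, edgeR). Kcnc2, another Kv3 gene, was at 0.591 ± 0.158 CPM in Ctrl-labelled libraries and 0.496 ± 0.118 in cKO-labelled ones (SD, n = 3, adjusted p = 0.598, edgeR).

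Kcna7, the most abundant member, was at 223, 236 and 175 CPM in Ctrl-labelled libraries and 296, 316 and 356 CPM in cKO-labelled ones. The groups did not overlap, and the difference was 1.53-fold (log2 fold change 0.61 ± 0.13, SE, adjusted p = 0.0186, edgeR). That call was lost without mouse 1 labelled Ctrl (adjusted p = 0.0518, edgeR), without mouse 3 labelled cKO (adjusted p = 0.0773, edgeR), and under total counts (log2 fold change 0.36, adjusted p = 0.0911, edgeR).

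Other voltage-gated genes of muscle did not pass the test. Kcna5 (Kv1.5) was at 22.3 ± 4.35 CPM in Ctrl-labelled libraries and 19.2 ± 2.86 CPM in cKO-labelled ones (SD, n = 3, adjusted p = 0.382, edgeR). The silent subunits Kcnf1 (Kv5.1) and Kcng4 (Kv6.4), which form no pore alone, varied most between mice of 1 group among the 14 members plotted by level per length. Kcnf1 was at 33.7, 17.1 and 20.7 CPM in Ctrl-labelled libraries and 71.4, 12.8 and 30.9 CPM in cKO-labelled ones. Mouse 1 was the highest of each labelled group, and the group labelled cKO spanned 5.60-fold. Kcng4 was at 27.4, 58.4 and 24.0 CPM against 56.1, 63.2 and 61.9 CPM, where mouse 2 labelled Ctrl lay among cKO-labelled ones (adjusted p = 0.136, edgeR). Without that mouse Kcng4 passed the test.

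**Figure D3:**
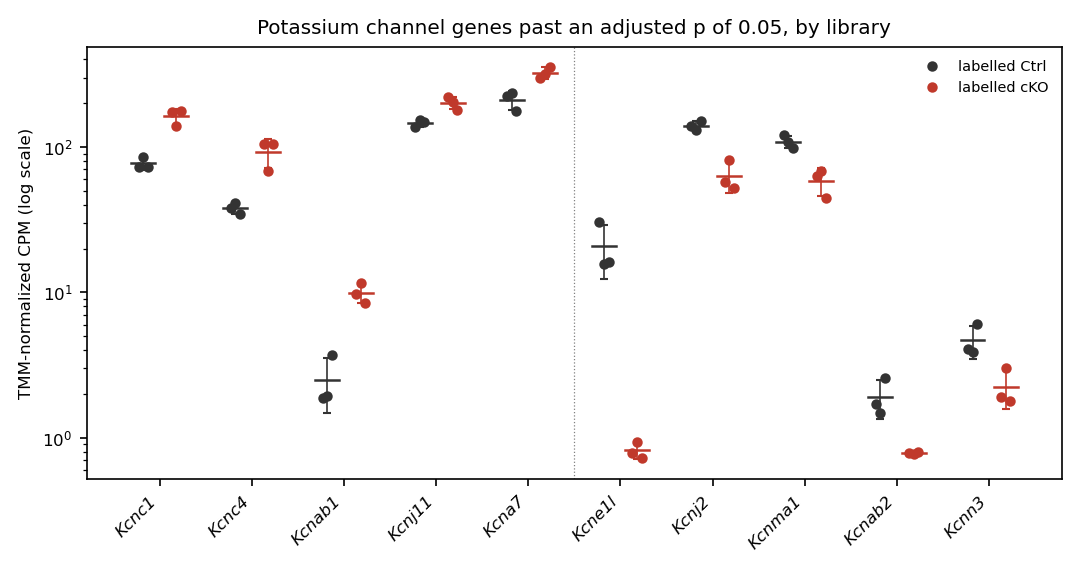
TMM-normalized CPM (vertical axis, log scale) of 10 of the 12 members past an adjusted p of 0.05, by library. Points are Ctrl-labelled libraries (black) or cKO (red), with the mean (horizontal line) and SD (vertical line), and the dotted line parts members higher in labelled cKO, at left, from those higher in labelled Ctrl. The labelled groups do not overlap for any member shown, and the gap is widest for Kcne1l.

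Among the inward rectifiers, 8 of 15 genes were tested, and 1 passed the test in each direction, with a median log2 fold change of 0.07. That was 12.5% each way, near the 12.6% higher in labelled cKO and 11.8% higher in labelled Ctrl over all genes tested. Kcnj2 encodes Kir2.1, a channel that holds the fibre near its resting potential. It was at 139, 131 and 150 CPM in Ctrl-labelled libraries and 57.7, 80.8 and 51.9 CPM in cKO-labelled ones. All 3 cKO-labelled libraries lay below Ctrl-labelled ones, and the level was 2.21-fold higher in labelled Ctrl (log2 fold change -1.14 ± 0.17, SE, adjusted p = 0.00544, edgeR). Kcnj12 (Kir2.2), the related subunit that can join Kir2.1 in 1 channel, was at 98.5, 115 and 67.2 CPM against 198, 96.0 and 126 CPM. Its groups overlapped through mouse 2 labelled cKO, and the difference of 0.59 ± 0.29 (log2, SE) did not pass (adjusted p = 0.182, edgeR). Kcnj11 (Kir6.2) was at 137, 153 and 148 CPM against 219, 205 and 179 CPM. The groups did not overlap, and the difference was 1.38-fold (0.46 ± 0.10, SE, adjusted p = 0.0173, edgeR). That call was lost without mouse 1 labelled Ctrl (adjusted p = 0.0674, edgeR), without mouse 1 labelled cKO (adjusted p = 0.0594, edgeR), and under total counts (log2 fold change 0.21, adjusted p = 0.146, edgeR). Kcnj8 (Kir6.1), the ATP-sensitive pore best known from vessels, was at 22.1 ± 2.47 CPM and 20.3 ± 4.35 CPM (SD, n = 3, adjusted p = 0.614, edgeR). Kcnj6, Kcnj3 and Kcnj15 were each below 1 CPM on average in both groups and did not pass.

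All 8 calcium- and sodium-activated genes were tested. Of these, 2 were higher in Ctrl-labelled libraries and 0 in cKO-labelled ones, with a median log2 fold change of -0.42. These were 25% and 0% of the 8, beside 11.8% and 12.6% of all genes tested. At an unadjusted p under 0.05 these counts were 2 and 1, beside the background of 19.6% and 19.2%. Kcnma1, the pore of the large-conductance BK channel, was at 120, 108 and 98.1 CPM in Ctrl-labelled libraries and 63.1, 68.8 and 44.3 CPM in cKO-labelled ones. The groups did not overlap, and the level was 1.85-fold higher in labelled Ctrl (log2 fold change -0.89 ± 0.17, SE, adjusted p = 0.0117, edgeR). Its exons overlap a gene on the opposite strand, and reads in the shared part cannot be told apart where counting ignores strand. Kcnn3 encodes the small-conductance channel SK3, which is known to appear in fibres that have lost their nerve. It was at 4.09, 3.86 and 6.07 CPM against 1.92, 3.01 and 1.80 CPM. Every Ctrl-labelled library was above cKO-labelled ones and the level was 2.08-fold higher in labelled Ctrl (-1.06 ± 0.27, SE, adjusted p = 0.0299, edgeR). Leaving out mouse 1, 2 or 3 labelled Ctrl moved its adjusted p to 0.0654, 0.0523 and 0.0652, and leaving out mouse 1 or 3 labelled cKO moved it to 0.0933 and 0.0942 (edgeR). The summed level of 12 denervation genes was 394 to 480 CPM in Ctrl-labelled libraries and 228 to 273 CPM in cKO-labelled ones, with 6 of the 12 higher in labelled Ctrl and 1 in labelled cKO. Without Myh3, the gene of the list that differed most in CPM, the sums overlapped, at 235 to 310 and 222 to 263 CPM. Those sums still held Myh8, the 1 gene higher in labelled cKO, at 28.2, 39.6 and 61.3 CPM against 78.1, 90.3 and 128 CPM. Besides Myh3, the genes higher in labelled Ctrl were Chrnb1, Chrnd, Myog, Runx1 and Ncam1, so the difference did not rest on Myh3 alone. The part of these genes in the Kcnn3 difference was not tested. Kcnn1 (SK1) was at 21.5 ± 2.11 and 26.1 ± 2.90 CPM (SD, n = 3, adjusted p = 0.112, edgeR).

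The K2P leak channels were all low. Of 14 genes, 4 were at 0 in every library and 7 were tested. By edgeR 0 of the 7 passed the test in either direction. Over all genes tested, 12.6% passed as higher in labelled cKO and 11.8% as higher in labelled Ctrl. An unadjusted p under 0.05 was reached by 3, all higher in Ctrl-labelled libraries, and by 19.6% of all genes tested in that direction. Log2 fold changes were negative for 6 of 7 K2P genes and for 7337 of the 14180 genes tested, and the K2P median was -0.56. Kcnk13 (THIK-1) was closest to the threshold, at 0.535 ± 0.149 CPM against 0.218 ± 0.0875 (SD, n = 3, adjusted p = 0.0525, edgeR). Kcnk5 (TASK-2) followed, at 2.04, 2.36 and 3.28 CPM against 1.21, 1.82 and 1.55 CPM, without overlap (adjusted p = 0.0684, edgeR). DESeq2 called Kcnk5. Scaling by total counts called Kcnk13, Kcnk5, Kcnk6 and Kcnk1. Kcnk13 had 10 or more counts in every library of labelled Ctrl only, so its direction is not read as support. Kcnk2 (TREK-1), opened by stretch and lipids, was the member with a positive value, at 2.52 ± 0.238 and 3.49 ± 0.920 CPM (SD, n = 3, adjusted p = 0.152, edgeR).

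Accessory subunits held the widest differences of the family. Of 12 genes, 6 were tested, with a median log2 fold change of -0.16. Among the 6, 1 (16.7%) was higher in cKO-labelled libraries and 2 (33.3%) in Ctrl-labelled ones. Over all genes tested these shares were 12.6% and 11.8%. Kcne1l, also known as Kcne5, encodes a single-pass membrane protein that modulates voltage-gated pores. It is a gene of 1 exon on chromosome X, from 142304752 to 142306294 on GRCm38. Counts were 1189, 644 and 591 in Ctrl-labelled libraries and 28, 36 and 32 in cKO-labelled ones, or 30.4, 15.5 and 16.2 CPM against 0.790, 0.935 and 0.727 CPM. The lowest Ctrl-labelled library was far above the highest labelled cKO, and the difference was 25.3-fold (log2 fold change -4.66 ± 0.33, SE, adjusted p = 0.000665, edgeR). Mouse 1 labelled Ctrl was the highest of its group by 1.95-fold over the lowest. Over 14 alternative settings the log2 fold change lay between -4.92 and -4.27.

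The Kv beta subunits Kcnab1 and Kcnab2 bind the cytoplasmic side of Kv1 pores, and their levels differed in opposite directions. Kcnab1 was at 1.89, 1.93 and 3.72 CPM in Ctrl-labelled libraries and 9.79, 11.6 and 8.50 CPM in cKO-labelled ones. Mouse 3 labelled Ctrl was the highest of its group and still below all cKO-labelled libraries, and the difference was 3.98-fold (log2 fold change 1.99 ± 0.28, SE, adjusted p = 0.00498, edgeR). Kcnab2 was at 1.71, 1.47 and 2.57 CPM against 0.790, 0.779 and 0.795 CPM. The 3 cKO-labelled libraries lay within 1.02-fold, and the level was 2.42-fold higher in labelled Ctrl (-1.28 ± 0.26, SE, adjusted p = 0.0152, edgeR). Without mouse 3 labelled cKO the adjusted p was 0.0532 (edgeR). Exons of Kcnab1 overlap a gene on the opposite strand and those of Kcnab2 a gene on the same strand. Kcne3 (MiRP2), a partner of Kv3.4, was low, at 0.463 ± 0.0673 and 0.419 ± 0.211 CPM (SD, n = 3, adjusted p = 0.848, edgeR). Kcne4 and Kcnmb1 did not pass the test either.

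Of the 94 members, 8 had no count in any library, and these were among 41 that met neither filter, with a highest count of 23. Kcnk7 met the rule, at 0.145 ± 0.0372 and 0.283 ± 0.0484 CPM (SD, n = 3), but was left out by the expression filter of edgeR, and Kcnj13 was tested without meeting the rule. Of the tested members, 45 had 10 or more counts in every library, while 3 did so in every library of 1 group only. Kcnj9, Kcnh5 and Kcnv1 were at 0 in Ctrl-labelled libraries, with 3, 1 and 1 counts summed over cKO-labelled ones. Kcnj16, Kcns2, Kcnk12 and Kcnd3os were at 0 in cKO-labelled libraries with 1 count each in Ctrl-labelled ones, and Kcnk10 had 2 there. At such counts no difference was detectable at this depth. Kcnq1ot1, the long transcript antisense to Kcnq1, was at 18.4 ± 0.951 and 15.7 ± 1.49 CPM (SD, n = 3, adjusted p = 0.127, edgeR). Where its exon overlaps those of Kcnq1, reads of the 2 genes cannot be told apart without strand.

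Partner subunits and other potassium-conducting channels outside the family as defined were read from a list of 18 genes, which includes the Kcnip genes and the channels Tmem38a, Tmem38b and Tmem175. Of these 18, 14 were tested. In all, 2 (14.3%) were higher in cKO-labelled libraries and 1 (7.14%) in Ctrl-labelled ones, with a median log2 fold change of 0.24. Over all genes tested these shares were 12.6% and 11.8%. Lrrc52, a gamma subunit of BK-type channels, was at 53.9, 44.8 and 25.5 CPM in Ctrl-labelled libraries and 6.07, 10.3 and 3.75 CPM in cKO-labelled ones. Its groups did not overlap, and it was 6.19-fold higher in labelled Ctrl (log2 fold change -2.63 ± 0.41, SE, adjusted p = 0.00660, edgeR), in the same direction as Kcnma1. Lrrc38, another BK gamma subunit, was at 45.5 ± 11.8 and 68.2 ± 13.4 CPM (SD, n = 3, adjusted p = 0.0784, edgeR). Amigo1, a membrane protein that binds voltage-gated channels, was at 41.8, 45.7 and 56.8 CPM against 80.5, 68.9 and 66.5 CPM, without overlap (0.58 ± 0.13, SE, adjusted p = 0.0208, edgeR). Abcc9, the sulfonylurea receptor SUR2 of muscle ATP-sensitive channels, was at 255, 273 and 312 CPM against 394, 328 and 372 CPM (0.38 ± 0.11, SE, adjusted p = 0.0464, edgeR). Abcc8, the SUR1 receptor, was at 6.55 ± 0.963 and 4.19 ± 1.14 CPM (SD, n = 3, adjusted p = 0.0697, edgeR). The Amigo1 and Abcc9 calls were lost when mouse 1 or 2 labelled Ctrl or mouse 1 labelled cKO was left out (adjusted p 0.0700, 0.0723 and 0.0660 for Amigo1, and 0.144, 0.133 and 0.139 for Abcc9, edgeR), and for Abcc9 also without mouse 3 labelled cKO (0.135). Under total counts their adjusted p was 0.0732 and 0.324.

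**Figure D4:**
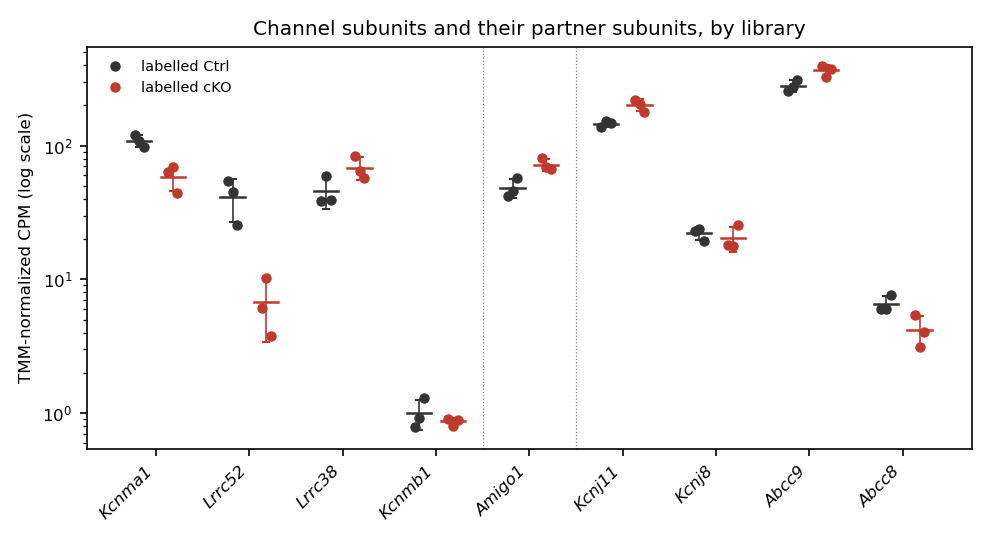
TMM-normalized CPM (vertical axis, log scale) of pore and partner subunits by library, with the mean and SD of each labelled group. Dotted lines part BK channel genes (Kcnma1, Lrrc52, Lrrc38, Kcnmb1), Amigo1 and ATP-sensitive channel genes (Kcnj11, Kcnj8, Abcc9, Abcc8). Lrrc52 shows the widest gap, with all 3 cKO-labelled libraries below Ctrl-labelled ones.

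Markers of fibre types and other cells also differed between the labelled groups. The summed level of 8 slow-fibre genes was 8481 to 14598 CPM in Ctrl-labelled libraries and 446 to 3873 CPM in cKO-labelled ones, with a median log2 fold change of -2.46, and 3 of the 8 passed the test. All 8 fast type IIb genes were higher in cKO-labelled libraries, at 55222 to 92920 against 145616 to 186462 CPM. Immune genes were at 193 to 218 against 88.4 to 123 CPM, with 7 of 10 higher in labelled Ctrl, and smooth muscle and pericyte genes at 561 to 579 against 444 to 486 CPM, with 3 of 8. Endothelial genes (507 to 522 against 454 to 486 CPM) had 1 of 9 higher in labelled Ctrl, and Schwann cell genes (159 to 230 against 90.6 to 147 CPM) had 1 of 8. Fibro-adipogenic genes (2713 to 2807 against 1961 to 2849 CPM) had 2 of 8 higher in labelled Ctrl, satellite cell genes (85.0 to 126 against 68.9 to 96.3 CPM) had 1 of 6 higher in labelled cKO and, without Sdc4, sums of 26.5 to 28.1 against 33.6 to 42.6 CPM, and 0 of 6 adipocyte genes (197 to 247 against 200 to 249 CPM) passed. Over all genes tested, 12.6% passed as higher in labelled cKO and 11.8% as higher in labelled Ctrl. No marker was at 0 in any library. The part of these lists in the differences of potassium channel genes was not tested.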

How the data were processed

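The authors deposited 1 table of raw counts per gene for each of 6 libraries, made from poly(A) mRNA libraries of GP muscle. Per the submitters' processing notes and methods, reads were checked with FastQC 0.11.8, trimmed with Trimmomatic 0.39, aligned to mm10 with HISAT2 2.1.0 and counted with featureCounts 1.6.2. The annotation and strand setting are not given in the sources used here. Deposited counts are whole numbers without normalization, and library totals were 33860001 to 48839910.

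The test was edgeR 4.0.16 under R 4.3.3 (filterByExpr, TMM, glmQLFit and glmQLFTest, Benjamini-Hochberg adjustment over all genes tested). The design was Ctrl against cKO as labelled, with no covariate. Calls required an adjusted p under 0.05, and a second count a fold over 2 as well. SEs were derived from the F statistic. The p-values measure the spread between mice. CPM used TMM-scaled totals and are given ± SD. Replicates differed by more than counting error (chi-square over its degrees of freedom, 29.5 to 101). Low counts carry counting error besides, and 10 counts were 0.227 to 0.282 CPM. Positions and exon lengths came from GENCODE M21 on GRCm38, in which all 94 members were found, and upstream sequences from RefSeq on GRCm38.p6. The steps were tested on simulated data with known changes.

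Members and lists were chosen with earlier results of these data known. Named genes were Net39, all members called, 14 channels of muscle, the 5 highest per kb, members at 0 in 1 group, and partner and excitability genes called (12 with the smallest p) with Clcn1, Scn4a and Abcc9. Alternatives were size factors, total counts, expression filters, DESeq2 1.42.0, a robust fit, a replicate block and leaving out each library. Single-nucleus data were not used here. Some members that the rule selects are not reported here, though counts over all members include them.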

Additional observations from a re-analysis of the deposited data

How the results depend on the processing

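Under 14 alternative settings Net39, Kcnc1, Kcnc4, Kcnab1, Kcne1l, Kcnj2 and Kcnma1 kept their direction and stayed past the threshold. The same 12 members passed with median-of-ratios size factors, no filter, 10 counts in every library, 10 counts in 3 libraries and a robust fit, and DESeq2 added Kcnk5, Kcng4 and 1 member under the 10-count rule. Under total counts, where Kcna7 and Kcnj11 were lost and Kcnk13, Kcnk5, Kcnj6, Kcnh2, Kcnk6, Kcnq1ot1 and Kcnk1 were added (Kcnj6 and Kcnk13 with 10 or more counts in every library of labelled Ctrl only), 12 members were higher in labelled Ctrl, 8 of them over 2-fold, and 3 were over 2-fold higher in labelled cKO, the median of all genes being lower there. With 1 library left out, 3 to 6 members were higher in labelled Ctrl (2 to 6 over 2-fold), from 3 and 2 without mouse 3 labelled cKO to 6 and 6, 1 member under the 10-count rule included, without mouse 2 labelled cKO. Over these fits the log2 fold change of Kcne3 was -0.64 to 0.11, positive without mouse 2 labelled cKO, and it passed the threshold in no setting. Mouse numbers as a replicate block gave 5 members higher in labelled cKO and 4 in labelled Ctrl (Net39 log2 fold change 4.22), and 1899 genes called in all against 3454, without Kcnn3 (adjusted p = 0.0753), Kcna7 (0.0601) and Kcnj11 (0.0565, edgeR). Of the other genes named, the block also lost Scn4a (0.0516), Amigo1, Hcn3, Clcn1, Atp1b2, Abcc9, Cacna1s and Cacnb1 (up to 0.126, edgeR). The numbers share no stated litter or day, and deviations of same-numbered mice correlated at 0.08, -0.24 and -0.01, and not every library correlated best with its own number, so the numbers were not taken to pair the mice. Over the named genes and alternatives together, 347 values kept direction and side of the threshold, 57 lost the call and 1 changed sign. With 3 mice per group, small differences of low members were not detectable at this depth.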

Other observations

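Genes that work beside potassium channels in the excitability of the fibre were read from a list of 26, of which 25 were tested. Of these, 8 (32%) were higher in cKO-labelled libraries and 6 (24%) in Ctrl-labelled ones, with a median log2 fold change of 0.03. Over all genes tested these shares were 12.6% and 11.8%, and the list was written with earlier results of these data known. Scn4a, the sodium channel of muscle, was at 425, 500 and 536 CPM in Ctrl-labelled libraries and 791, 720 and 696 CPM in cKO-labelled ones (log2 fold change 0.60 ± 0.12, SE, adjusted p = 0.0126, edgeR). Its beta subunit Scn4b was also higher without overlap between groups (0.55 ± 0.09, SE, adjusted p = 0.00678, edgeR). Clcn1, the chloride channel that steadies the fibre membrane, was at 129, 174 and 169 CPM against 247, 214 and 233 CPM (0.56 ± 0.13, SE, adjusted p = 0.0226, edgeR). Its call was lost without mouse 1 labelled cKO (adjusted p = 0.0756, edgeR), without mouse 3 labelled cKO (adjusted p = 0.0719, edgeR) and under total counts (adjusted p = 0.0783, edgeR). The calcium channel subunits Cacng1 (0.88 ± 0.14, SE, adjusted p = 0.00664, edgeR) and Cacna2d1 (0.77 ± 0.10, SE, adjusted p = 0.00365, edgeR) were higher in cKO-labelled libraries. Cacnb1, the beta subunit of the same channel, was higher in labelled Ctrl, at 223, 247 and 240 CPM against 205, 192 and 191 CPM (-0.27 ± 0.08, SE, adjusted p = 0.0455, edgeR). Cacna1s, its pore, was higher in labelled cKO (0.60 ± 0.17, SE, adjusted p = 0.0402, edgeR), and these last 2 genes were added after their values were seen. Leaving out 1 library lost the Cacnb1 call for each of the 6 libraries (adjusted p 0.0661 to 0.148, edgeR) and the Cacna1s call for each except mouse 2 labelled cKO (adjusted p 0.0511 to 0.124, edgeR). Over all 14 alternative settings, Cacnb1 stayed past the threshold in 5 and Cacna1s in 7. Hcn3, a cation channel opened by hyperpolarization, was counted among the 8, but had 5, 5 and 2 counts in Ctrl-labelled libraries and 14, 12 and 17 in cKO-labelled ones. It reached 10 counts only in the group where it was higher, so its call had to be in that direction and supports nothing here.

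Genes that move potassium by pump or carrier differed in both directions. Slc12a4, which carries potassium and chloride out of the cell, was at 67.0, 73.6 and 53.8 CPM in Ctrl-labelled libraries and 29.4, 28.6 and 29.2 CPM in cKO-labelled ones. It was 2.23-fold higher in labelled Ctrl (log2 fold change -1.16 ± 0.12, SE, adjusted p = 0.00219, edgeR). The related carrier Slc12a7 was higher in labelled Ctrl as well (-0.64 ± 0.08, SE, adjusted p = 0.00340, edgeR). Of the sodium-potassium pump beta subunits, Atp1b1 was higher in labelled Ctrl, at 409, 422 and 337 CPM against 177, 261 and 224 CPM (-0.82 ± 0.16, SE, adjusted p = 0.0128, edgeR). So was Atp1b4, added after its values were seen and not followed through the alternative settings (-1.01 ± 0.27, SE, adjusted p = 0.0358, edgeR). Atp1b3 was lower in every cKO-labelled library but did not pass (-0.27 ± 0.09, SE, adjusted p = 0.0634, edgeR). Atp1b2 was higher in labelled cKO, at 131, 178 and 257 CPM against 449, 306 and 352 CPM (0.97 ± 0.25, SE, adjusted p = 0.0328, edgeR). The Atp1b2 call was lost without mouse 1 labelled Ctrl, mouse 2 labelled Ctrl, mouse 1 labelled cKO or mouse 3 labelled cKO (adjusted p 0.0789, 0.0996, 0.1003 and 0.0774, edgeR).

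Ratios of levels per kb between related subunits were chosen after their values were seen and are given as a description with no test. The ratio of Kcnab1 to Kcnab2 was 1.53, 1.81 and 2.00 in Ctrl-labelled libraries and 17.1, 20.6 and 14.8 in cKO-labelled ones. The ratio of Kcnj12 to Kcnj2, subunits of Kir2 channels, was 1.40, 1.74 and 0.885 against 6.81, 2.35 and 4.82. Both were higher in every cKO-labelled library. Lrrc52 to Kcnma1 was 5.28, 4.90 and 3.07 against 1.13, 1.77 and 0.998, lower in every cKO-labelled library. Kcnj11 to Abcc9, the pore and receptor of the ATP-sensitive channel, overlapped between groups at 1.37, 1.43 and 1.21 against 1.42, 1.59 and 1.23. So did Kcnc1 to Kcnc4, at 0.755, 0.813 and 0.825 against 0.649, 0.799 and 0.654.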
